A study of Mus musculus with 7 samples.

Results

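Primary mouse myogenic progenitor cells kept for 5 days in differentiation medium were compared with the same kind of cells kept for 5 days in growth medium. Each day 5 group holds 4 rows of threshold cycles (Ct), so 8 of the 24 rows of the series enter the comparison, and all 375 miRNA assays on the plates were joined by name (335 for mouse and 40 for rat sequences). No measured value was used to choose them, and 246 of the 375 could be tested. The study quantified mature miRNAs in these cells with TaqMan real-time PCR, on days 0, 1, 2 and 5 of differentiation and on days 2 and 5 of proliferation.

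Cells of both groups were muscle-derived progenitors from the hind limb of C57BL/6J mice. The differentiation cells were plated on dishes coated with entactin, collagen IV and laminin, spent a day in growth medium (their day 0), and were then moved to DMEM with a low share of horse serum. The growth cells were kept in flasks coated with type I collagen, in Ham's F-10 with a high share of fetal bovine serum and with FGF-2, a growth factor that keeps myoblasts dividing. Medium, coating, vessel, plating density and course therefore differ together between the groups and cannot be told apart. Nothing in the labels tells separate cultures from repeated wells among the 4 rows, so a p-value reflects row-to-row spread alone, which may be technical. In RNA of a whole culture, fewer cells of a type and less RNA per cell cannot be told apart.

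Myogenic progenitors descend from the satellite cells of muscle. In serum and FGF-2 they divide as mononucleated myoblasts, and when serum is withdrawn they leave the cell cycle, switch on MyoD and myogenin targets and fuse into myotubes. A miRNA guides the silencing complex to messenger RNAs mainly through its seed, the bases at positions 2 to 8, so miRNAs of 1 seed share many targets. The muscle miRNAs miR-1, miR-133 and miR-499 are switched on by myogenic factors, whereas the miR-17-92 cluster is driven by Myc and E2F in dividing cells.

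The mature sequences below show the seeds of families in which most or all tested members passed in 1 direction, the 2 arms of the hairpin in which the arms differed most, and 3 single miRNAs that were higher in differentiation medium (miR-133b, miR-499 and miR-504). They are from RefSeq (GRCm38.p6), written 5′ to 3′ with the seed in capitals. The sequences of miR-1 and miR-133a are not shown.
miR-15a: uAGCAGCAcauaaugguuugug
miR-15b: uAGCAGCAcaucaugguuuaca
miR-16: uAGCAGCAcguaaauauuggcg
miR-195: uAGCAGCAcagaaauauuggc
miR-497: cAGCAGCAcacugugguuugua
miR-322: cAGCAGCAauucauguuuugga
miR-17: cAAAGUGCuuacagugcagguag
miR-20a: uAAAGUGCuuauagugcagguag
miR-106a: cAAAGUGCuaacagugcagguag
miR-93: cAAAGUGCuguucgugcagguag
miR-29a: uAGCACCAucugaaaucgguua
miR-29b: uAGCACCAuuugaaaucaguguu
miR-29c: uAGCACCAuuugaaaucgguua
miR-183: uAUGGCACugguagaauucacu
miR-96: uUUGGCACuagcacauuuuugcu
miR-182: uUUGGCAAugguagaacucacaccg
miR-335-5p: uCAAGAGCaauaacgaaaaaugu
miR-335-3p: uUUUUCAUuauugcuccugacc
miR-133b: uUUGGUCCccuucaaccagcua
miR-499: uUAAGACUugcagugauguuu
miR-504: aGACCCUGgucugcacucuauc

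A level is the Ct of MammU6, the U6 small nuclear RNA, minus the Ct of the miRNA in the same row. It is on the log2 scale, with 1 cycle taken as a factor of 2, and a higher level means more miRNA. A difference is differentiation minus growth, with the SE of a limma fit on the 8 rows, and it passed if its p, adjusted by Benjamini and Hochberg's method across the 246 assays tested, was under 0.05. Each row gave a Ct for 258 to 271 of the miRNA assays in differentiation medium and for 251 to 270 in growth medium, with Ct from 11.29 to 39.9. MammU6 was read at 13.69, 12.58, 12.74 and 12.87 cycles in differentiation medium and at 12.55, 13.64, 12.85 and 12.47 in growth medium (exact permutation test, two-sided p = 0.657). The median Ct of the miRNA assays found in all 8 rows, used below as another reference (the row median), was 24.61 ± 0.24 in differentiation medium and 24.66 ± 0.35 in growth medium (SD, n = 4 rows each). The control snoRNA135 came up later in differentiation medium, at 19.21 ± 0.41 cycles against 18.28 ± 0.22 in growth medium (SD, n = 4 each), with no overlap and an exact two-sided p of 0.0286, the smallest that 4 rows against 4 can give. The controls were fitted with limma apart from the miRNA assays, with p adjusted across the control assays only. None of the 4 other controls passed against MammU6 in this way. Against the row median snoRNA135 (-0.98, adjusted p = 0.00013) and U87 (-0.59, adjusted p = 0.00375) were lower by limma, so both references were used.

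Of the 246 assays tested, 80 changed (32.5% of those tested): 36 were higher in differentiation medium (14.6%) and 44 were lower (17.9%), with a median difference of -0.07 over all. Of the 80, 33 differed by at least 2 cycles, 19 of them higher and 14 lower. Levels of the groups did not overlap for 68 assays (27.6%). Against the row median 43 were higher (17.5%) and 78 were lower (31.7%). The calls shared by both references number 76, of which 32 were higher and 44 lower, and no assay passed in opposite directions. With each of the 8 rows left out in turn, 49 of the 80 calls passed every time, 24 higher and 25 lower. Of the 246 assays, 8 had a mean Ct of at least 35 in 1 group. They could be tested only because they were read earlier in the other group. Of these 8, 7 are among the 80, and their part in the counts is no support for a difference. Of the 225 assays with a mean Ct under 32 in both groups 70 changed, 29 higher and 41 lower.

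**Figure D1:**
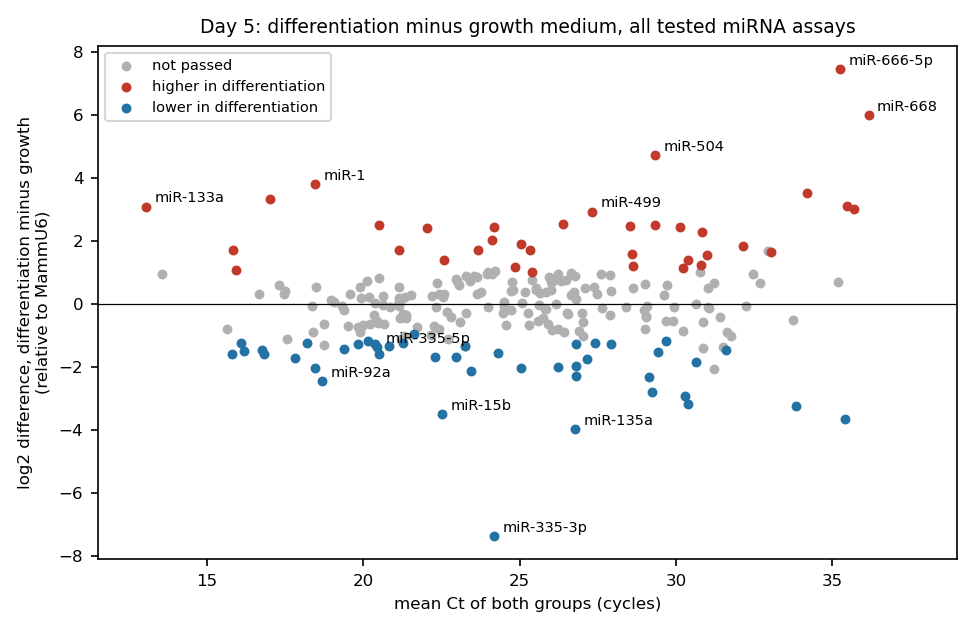
Each point is 1 of the 246 miRNA assays tested. The x axis is its mean Ct over both groups (a low Ct is an abundant miRNA) and the y axis its log2 difference, differentiation minus growth, relative to MammU6. The muscle miRNAs miR-133a and miR-1 stand out among abundant assays, miR-335-3p lies alone at -7.36, and the uppermost points, miR-666-5p and miR-668, are at late Ct.

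Most muscle-restricted miRNAs were higher in differentiation medium. Of 6 tested, 5 were higher (83.3%, beside 14.6% of all assays) and none was lower. The median difference was 2.72 beside -0.07 for all assays. Their summed level, per 1000 units of MammU6, ran from 2630 to 4240 in differentiation medium and from 241 to 690 in growth medium. This sum is mostly miR-133a, which had the lowest Ct of the list in every row. In growth medium miR-133a was read at 13.91 to 14.90 cycles and miR-1 at 19.90 to 20.73. miR-499, at 27.98 to 29.43, and miR-486, at 29.34 to 31.71, were read much later there.

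miR-1, which promotes myoblast differentiation and represses HDAC4, was read at 16.56, 16.34, 16.82 and 16.64 cycles in differentiation medium and at 20.54, 20.06, 20.73 and 19.90 in growth medium. All 4 differentiation rows came up earlier than any growth row. The difference was 3.81 ± 0.43 (SE; 95% interval 2.88 to 4.74; adjusted p = 3.45e-05), or 14.03-fold. An assay for the rat miR-1 sequence gave 3.35 ± 0.41 (adjusted p = 5.60e-05). miR-133a, made from the same primary transcripts and known to repress SRF, had the lowest Ct of any miRNA assay in the differentiation rows, whereas miR-24 had it in the growth rows. It was read at 11.80, 11.29, 11.48 and 11.59 cycles in differentiation medium and at 14.90, 14.57, 14.78 and 13.91 in growth medium. The groups were again apart, by 3.09 ± 0.38 (adjusted p = 6.58e-05), an 8.53-fold gain.

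miR-133b, which shares the seed UUGGUCC with miR-133a, was higher too. It was read at 15.04, 14.77, 15.26 and 14.99 cycles in differentiation medium and at 17.16, 16.34, 16.93 and 16.17 in growth medium, a difference of 1.73 ± 0.44 (adjusted p = 0.0111). miR-499, encoded in an intron of the slow myosin gene Myh7b, was read at 25.37, 25.02, 26.91 and 26.25 cycles in differentiation medium and at 27.98, 28.31, 29.43 and 29.21 in growth medium. It was 7.66-fold higher (2.94 ± 0.59, adjusted p = 0.00238), with no overlap. miR-486, which lies in the Ank1 gene and represses Pax7, was 5.69-fold higher (2.51 ± 0.50, adjusted p = 0.00238).

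miR-208b, encoded in the slow myosin gene Myh7, did not pass. It was read at 31.12, 30.22, 29.54 and 29.18 cycles in differentiation medium and at 29.14, 29.74, 29.31 and 29.34 in growth medium, and the difference was -0.54 ± 0.38 (95% interval -1.37 to 0.29). The count of 5 higher and none lower was the same against each of the 5 other references and with each row left out. With the variance of each assay estimated alone it was 4.

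**Figure D2:**
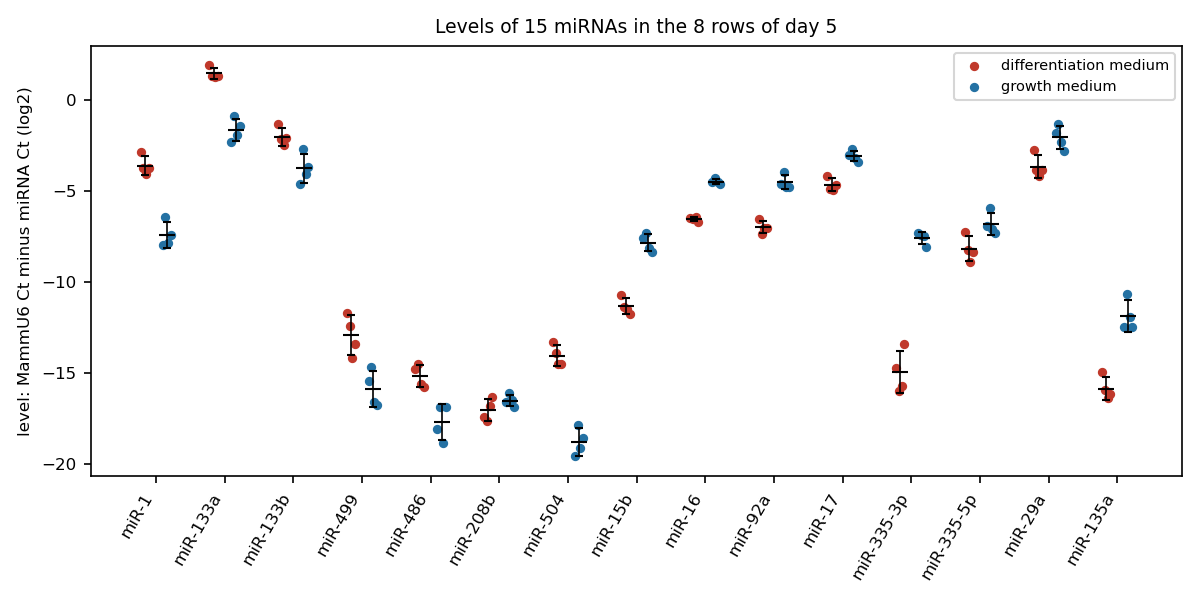
The 8 rows of day 5 for 15 miRNAs, as level (MammU6 Ct minus miRNA Ct, log2), with differentiation rows in red left of growth rows in blue; bars are the mean and SD of the 4 rows. The 2 colours do not overlap for miR-1, miR-133a, miR-133b, miR-499, miR-486, miR-504, miR-15b, miR-16, miR-92a, miR-17, miR-335-3p and miR-135a, and they overlap for miR-208b, miR-335-5p and miR-29a.

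The miR-15 and miR-16 miRNAs, which repress cyclins and Bcl2, were lower in differentiation medium. Of 7 tested members of the family with miR-322 and miR-503, 5 were lower (71.4%, beside 17.9% of all assays) and none was higher. The median was -2.04, and the 5 were lower against every reference and with each row left out. miR-15b was read at 24.40, 23.96, 24.24 and 24.61 cycles in differentiation medium and at 20.15, 20.94, 20.98 and 20.82 in growth medium. Every differentiation row came up later than every growth row, and the difference was -3.49 ± 0.38 (adjusted p = 2.59e-05), or 11.2-fold lower.

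miR-16, which had the lowest Ct of them, was read at 20.16, 19.11, 19.19 and 19.56 cycles in differentiation medium and at 17.08, 17.95, 17.37 and 17.10 in growth medium. It was 4.11-fold lower (-2.04 ± 0.31, adjusted p = 3.38e-04). The other 3 that passed were miR-497 (-2.32 ± 0.45), miR-195 (-2.14 ± 0.32) and miR-15a (-1.76 ± 0.42). All 5 carry the seed AGCAGCA shown above.

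miR-322, which carries that seed too, did not pass: it was read at 21.78, 21.26, 21.75 and 21.17 cycles in differentiation medium and at 21.48, 20.82, 21.39 and 20.61 in growth medium. Its difference was -0.32 ± 0.42, with a 95% interval of -1.24 to 0.59. miR-503, its neighbour on chromosome X, which is known to target Cdc25A and to rise in differentiating myoblasts, had -0.24 ± 0.43. Both signs turned against U87 and snoRNA135, as given in the closing section. None of the 6 tested members of the cluster that holds miR-322, miR-503, miR-351, miR-542 and miR-450 passed against MammU6 or the row median. Against U87 and against snoRNA135 3 of the 6 were higher, and against snoRNA202 1 was. Without row 2 of growth 1 was higher against MammU6.

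Most miRNAs of the miR-17-92 cluster and its paralogs were lower. Of 11 tested members 9 were lower in differentiation medium (81.8%, beside 17.9% of all assays) and none was higher, with a median of -1.42. Their summed level was 151 to 283 per 1000 units of MammU6 in differentiation medium and 411 to 814 in growth medium. miR-92a moved furthest. It was read at 20.22, 19.93, 19.77 and 19.94 cycles in differentiation medium and at 17.17, 17.62, 17.63 and 17.24 in growth medium, so that it was 5.49-fold lower with no overlap (-2.46 ± 0.35, adjusted p = 2.50e-04).

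Of the members with the seed AAAGUGC, miR-17 was read at 17.86, 17.46, 17.72 and 17.55 cycles in differentiation medium and at 15.60, 16.37, 16.04 and 15.90 in growth medium. The difference was -1.58 ± 0.34 (adjusted p = 0.00375). miR-20a (-1.71 ± 0.38), miR-106a (-1.48 ± 0.34) and miR-20b (-1.42 ± 0.33) moved by similar amounts. miR-106a was read at 17.74, 17.30, 17.64 and 17.49 cycles in differentiation medium and at 15.67, 16.35, 15.98 and 15.90 in growth medium. These Ct are close to those of miR-17 in every row, and the sequences of miR-17 and miR-106a differ at 1 base. Whether each assay reads only its own miRNA was not tested, so the members counted may not be independent. miR-19a (-1.27 ± 0.35), miR-19b (-1.50 ± 0.39), miR-18a (-1.35 ± 0.39) and miR-106b (-1.34 ± 0.42) also passed. The call of miR-19a was lost with 1 of the 8 rows left out, that of miR-18a with 3 and that of miR-106b with 5.

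miR-93 (-0.88 ± 0.36, adjusted p = 0.080) and miR-25 (-0.995 ± 0.41, adjusted p = 0.084), which lie with miR-106b in an intron of the replication gene Mcm7, did not pass. Both were lower against the row median, where all 11 members passed. Against snoRNA135 5 of the 11 were lower, and with a row left out 6 to 11 were.

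**Figure D3:**
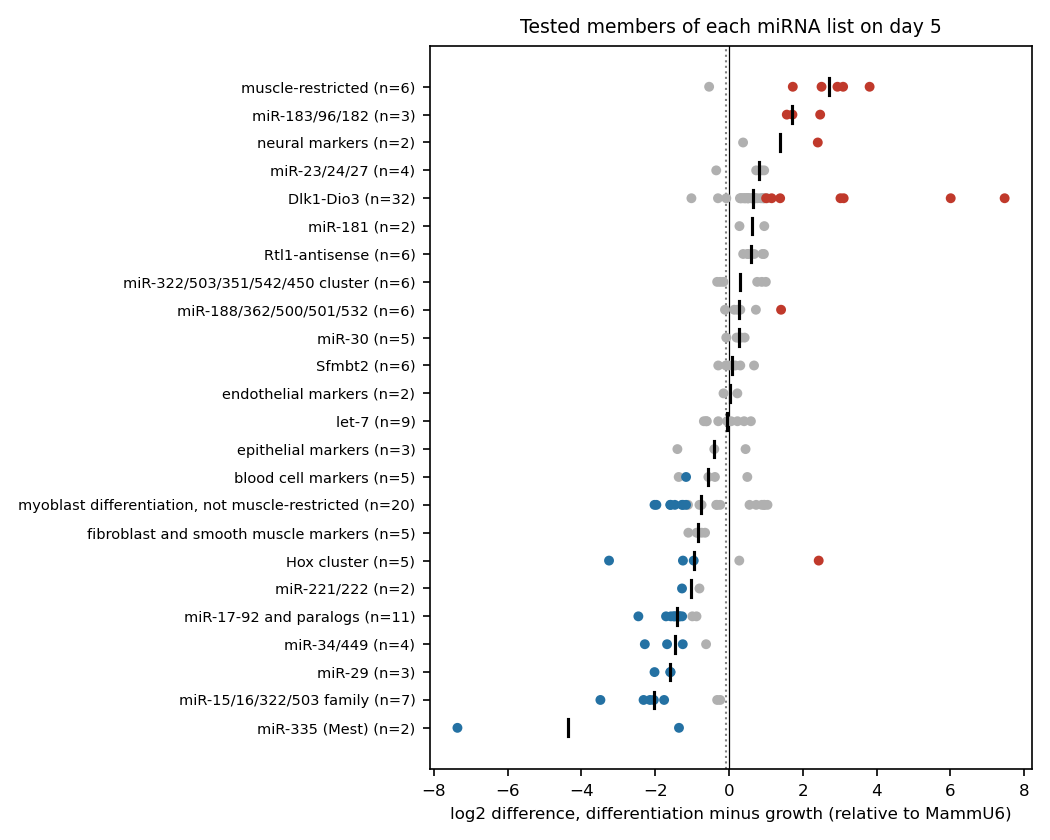
Each row is a list of miRNAs with the number tested in brackets, each point 1 member at its log2 difference, differentiation minus growth, relative to MammU6; red is higher, blue is lower, grey did not pass. The bar is the list's median and the dotted line the median of all 246 assays, -0.07. The muscle-restricted list lies at the top with a median of 2.72 and the family that holds miR-15 and miR-16 near the bottom at -2.04.

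miR-335 gave the largest loss, and its 2 arms differed. The hairpin lies on chromosome 6 at chr6:30741299-30741396 (GRCm38.p6, plus strand), in an intron of Mest, an imprinted gene of mesodermal tissue. It is printed below from RefSeq with the 2 mature arms in capitals, the 5p arm at bases 16 to 38 and the 3p arm at bases 56 to 77 of 98.
miR-335 hairpin: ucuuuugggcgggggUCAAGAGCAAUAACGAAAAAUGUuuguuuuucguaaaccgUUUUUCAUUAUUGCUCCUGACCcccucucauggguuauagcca

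The 3p arm was read at 28.39, 28.57, 28.44 and 26.28 cycles in differentiation medium and at 19.89, 21.06, 20.34 and 20.57 in growth medium. Every growth row came up earlier than every differentiation row. The difference was -7.36 ± 0.52 (adjusted p = 4.29e-07), or 165-fold lower, and ran from -7.88 to -7.02 with a row left out. The 5p arm was read at 20.94, 20.81, 21.63 and 21.25 cycles in differentiation medium and at 19.47, 19.61, 19.95 and 19.80 in growth medium. It was 2.56-fold lower (-1.36 ± 0.44, adjusted p = 0.0297), its levels overlapped between the groups, and the call was lost with 5 of the 8 rows left out.

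The gap between the 2 arms of miR-335 was 6.01 cycles. Of 20 hairpins with both arms tested, the median gap was 0.40 and the next largest was 2.70, in miR-409. The 5p arm of miR-409 was read at 34.92 to 38.68 cycles in growth medium. That arm could be tested only because it was read earlier in differentiation medium, so the gap of miR-409 is uncertain. Both arms passed in the same direction in 4 hairpins, miR-335, miR-339, miR-582 and miR-615, and in none did they pass in opposite directions. The 5p arm of miR-615 could be tested only because it was read earlier in growth medium.

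Among other families, the miR-29 miRNAs, which repress collagens and promote myogenic differentiation, were lower in differentiation medium. miR-29a was read at 16.45, 16.42, 16.95 and 16.75 cycles in differentiation medium and at 14.41, 14.96, 15.16 and 15.30 in growth medium. The Ct values did not overlap but the levels against MammU6 did. All 3 members were lower (100%, beside 17.9% of all assays). miR-29a had -1.59 ± 0.43, miR-29b -2.02 ± 0.52 and miR-29c -1.59 ± 0.43, the last lost without row 2 of differentiation. With the variance of each assay estimated alone none of the 3 passed. The sequences of miR-29a and miR-29c differ at 1 base. Whether each of these assays reads only its own miRNA was not tested, so the 3 may not be independent.

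The miR-34 and miR-449 miRNAs, whose miR-34 members are targets of p53, had 3 of 4 lower (75.0%, beside 17.9% of all assays). These were miR-449a (-2.28 ± 0.44), miR-34c (-1.68 ± 0.45) and miR-34b-3p (-1.26 ± 0.35). The call of miR-34b-3p was lost with 2 of the 8 rows left out. miR-34a did not pass, at -0.62 ± 0.43. In the opposite direction, all 3 members of the cluster of miR-183, miR-96 and miR-182, known from sensory organs, were higher in differentiation medium. That is 100%, beside 14.6% of all assays. miR-183 gained 2.47 ± 0.37 (adjusted p = 3.38e-04), miR-182 gained 1.72 ± 0.32 and miR-96 gained 1.57 ± 0.47, the last not passing without row 4 of growth.

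Among the assays tested, the largest gain after miR-666-5p and miR-668, described below with their cluster, was that of miR-504. This miRNA lies in an intron of Fgf13. It was read at 26.97, 26.49, 27.22 and 27.39 cycles in differentiation medium and at 32.12, 31.47, 31.98 and 31.05 in growth medium. The groups did not overlap and the gain was 4.73 ± 0.45 (adjusted p = 6.83e-06), or 26.5-fold. miR-139-5p, which lies in Pde2a, was read at 19.64, 19.05, 19.11 and 19.37 cycles in differentiation medium and at 22.01, 21.82, 21.89 and 21.07 in growth medium, a 5.65-fold gain (2.50 ± 0.37). miR-425 (2.53 ± 0.40) and miR-128a (2.41 ± 0.44) were also higher. miR-375 (2.46 ± 0.66), whose levels overlapped between the groups though its Ct values did not, was higher too. So was miR-344 (3.52 ± 0.61), which was read late, at a mean of 32.48 cycles in differentiation medium and 35.90 in growth medium. miR-344 could be tested only because it was read earlier in differentiation medium.

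Among the losses, miR-135a was read at 28.64, 28.50, 29.11 and 29.04 cycles in differentiation medium and at 25.01, 24.28, 24.76 and 24.94 in growth medium. It was 15.8-fold lower with no overlap (-3.98 ± 0.48, adjusted p = 5.58e-05). Both arms of miR-582 were lower, the 5p arm at -3.18 ± 0.65 and the 3p arm at -2.78 ± 0.46. miR-147 (-2.91 ± 0.59), miR-204 (-1.998 ± 0.43) and miR-125b-3p (-1.97 ± 0.37) also fell. The assay for rat miR-207 (-3.66 ± 0.85) had a mean Ct of 37.30 in differentiation medium and 33.55 in growth medium, near the end of the run of 40 cycles. It could be tested only because it was read earlier in growth medium.

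The miRNAs of the Hox clusters did not move one way. miR-10b, next to Hoxd4, was read at 22.67, 22.40, 23.14 and 23.84 cycles in differentiation medium and at 24.99, 24.82, 25.92 and 25.67 in growth medium, and it was 5.39-fold higher with no overlap (2.43 ± 0.53, adjusted p = 0.00375). miR-10a, which shares the seed ACCCUGU and lies in the HoxB cluster, had 0.28 ± 0.46 and did not pass. Both arms of miR-615, in the HoxC cluster, were lower. The 5p arm was read at 36.02, 35.22 and 35.34 cycles in 3 of the 4 differentiation rows, against 30.62, 33.73, 31.44 and 32.80 in growth medium (-3.25 ± 0.55). It could be tested only because it was read earlier in growth medium, so its call is no support for a fall. Among the 4 Hox members with a mean Ct under 32 in both groups 1 was higher and 2 were lower. The 3p arm (-1.25 ± 0.42) and miR-196b of the HoxA cluster (-0.96 ± 0.31, adjusted p = 0.0306) lost their calls with 5 and 6 of the 8 rows left out.

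The large Dlk1-Dio3 cluster, imprinted and expressed from the maternal allele, is active in satellite cells. The list used here may leave out members, as miR-493 and miR-544 were tested but not listed. Of its 32 tested members 7 were higher in differentiation medium (21.9%, beside 14.6% of all assays) and none was lower. The median was 0.65. Against the row median 4 were higher, beside 17.5% of all assays. Of the 7, 4 had a mean Ct of at least 35 in growth medium, so they could be tested only because they were read earlier in differentiation medium, and their part in the count is no support for a shift of the cluster. Among the 27 members with a mean Ct under 32 in both groups 3 were higher, and 2 of 32 were higher with the variance of each assay estimated alone. miR-666-5p was read at 32.95, 30.77, 31.04 and 32.08 cycles in differentiation medium and at 38.54, 39.16 and 38.80 in 3 of the 4 growth rows, with no Ct in the other. This is a difference of 7.47 ± 0.41 (adjusted p = 1.53e-07), but it rests on growth values that lie within 2 cycles of the end of the run. miR-668 was likewise read at 34.53, 32.81, 33.56 and 32.48 cycles in differentiation medium and at 39.33, 38.81 and 38.88 in 3 growth rows (6.01 ± 0.43, adjusted p = 9.39e-07).

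miR-409-5p (3.02 ± 1.00, adjusted p = 0.0330) and miR-539 (3.11 ± 0.91, adjusted p = 0.0218, 3 growth rows) had overlapping values and lost their calls with 4 and 3 of the 8 rows left out, and miR-539 did not pass against the row median. Among members of low Ct, miR-127, which with miR-433 and miR-434 is antisense to the imprinted gene Rtl1, was read at 20.95, 20.66, 21.20 and 20.92 cycles in differentiation medium and at 20.79, 21.63, 21.70 and 21.34 in growth medium (0.53 ± 0.38, not passed). None of the 6 tested members that are antisense to Rtl1 passed against MammU6 or the row median, whereas 1 was higher against Y1, 2 against snoRNA202, 5 against U87 and 6 against snoRNA135, and 2 were higher against MammU6 without row 1 of growth. The count for the whole Dlk1-Dio3 list moved with the reference, from 4 higher against the row median to 24 against U87 and 29 against snoRNA135. With a row left out it was 2 to 8 higher. Without row 1 of differentiation 5 were higher and 1 was lower.

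**Figure D4:**
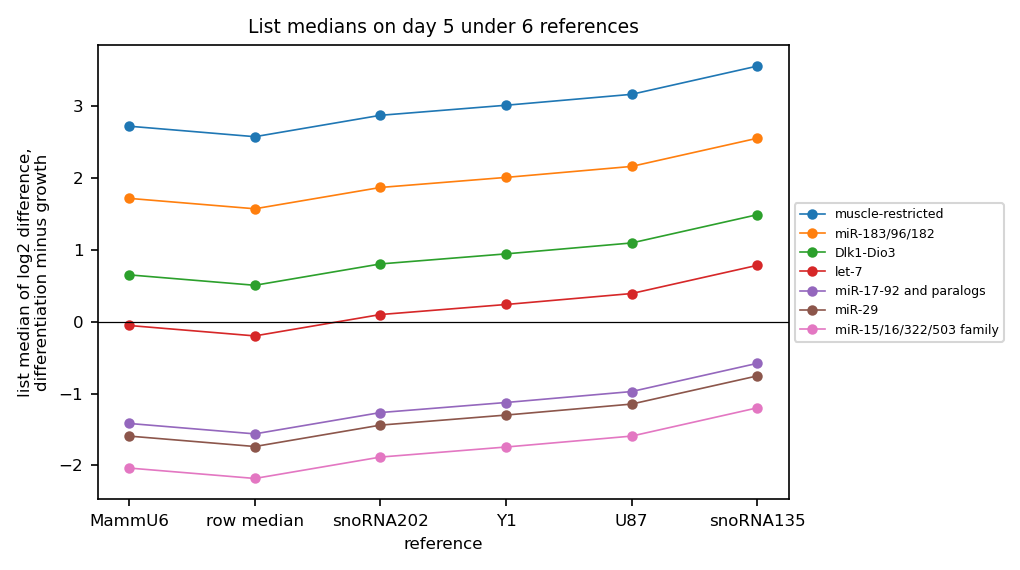
The median log2 difference, differentiation minus growth, of 7 lists of miRNAs against 6 references. The medians of the muscle-restricted list and of miR-183, miR-96 and miR-182 stay above 0 and those of miR-17-92, miR-29 and the family of miR-15 and miR-16 below 0 against each of the 6, whereas let-7 turns from -0.05 against MammU6 to 0.79 against snoRNA135.

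Several abundant families did not pass against MammU6. None of 9 let-7 assays, which block proliferation genes in many tissues, passed against MammU6, with differences from -0.68 to 0.59. Of the 9, 3 were lower against the row median and 2 against snoRNA202, whereas 4 were higher against snoRNA135 and 1 against U87. The 5 miR-30 assays lay between -0.08 and 0.42, and none passed against MammU6 or the row median. All 5 were higher against snoRNA135, and 2 were higher against each of snoRNA202 and U87. Of the miR-23, miR-24 and miR-27 miRNAs none of 4 passed against MammU6, but against the row median miR-23b (0.73), miR-24 (0.81) and miR-27b (0.59) were higher, and 3 of 4 were higher against each of snoRNA135, snoRNA202, U87 and Y1. miR-24 was read at 13.32, 12.88, 13.19 and 13.13 cycles in differentiation medium and at 13.82, 14.23, 14.02 and 13.89 in growth medium (0.95 ± 0.35, adjusted p = 0.053), and its groups did not overlap. Of the pair that represses the cell cycle inhibitor p27, miR-221 was lower (-1.28 ± 0.45, adjusted p = 0.0457, lost with 6 of the 8 rows left out) and miR-222 did not pass (-0.80 ± 0.35).

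miRNAs known to act in myoblast differentiation without being muscle-restricted had 8 of 20 lower against MammU6 (40.0%, beside 17.9% of all assays) and none higher, with a median of -0.77. With a row left out 3 to 11 were lower, 3 without row 2 and 4 without row 4 of differentiation, and 3 were higher without row 2 of growth. With the variance of each assay estimated alone 3 were lower. The 8 include the 3 miR-29 miRNAs, miR-221, miR-125b-3p and miR-155, which represses MEF2A (-1.17 ± 0.33, lost with 3 of the 8 rows left out). Against the row median 4 were higher and 11 were lower, and against snoRNA135 6 were higher and 5 lower, with a median of 0.0638. None of 6 tested miRNAs of the Sfmbt2 cluster passed against MammU6, nor did either miR-181 assay. In the cluster of miR-188, miR-362, miR-500, miR-501 and miR-532 1 of 6 did (16.7%, near the 14.6% of all assays that were higher). It was miR-501-3p (1.41 ± 0.41, lost with 3 of the 8 rows left out). Against snoRNA135 4 of the Sfmbt2 cluster, 2 miR-181 assays and 6 of the miR-188 cluster were higher, and against the row median 1 miR-181 assay was.

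Markers of other cell types were measured in the same rows. The 5 fibroblast and smooth muscle markers had a summed level of 22.0 to 49.7 per 1000 units of MammU6 in differentiation medium and 36.8 to 79.9 in growth medium. None passed against MammU6 (miR-143 had -1.10 ± 0.45), and 4 were lower against the row median. The 2 miR-126 assays, an endothelial marker, had 1.15 to 2.12 in differentiation medium and 1.01 to 1.79 in growth medium. Neither passed against MammU6, and 2 were higher against snoRNA135.

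Blood cell markers had 1 of 5 lower, miR-155 (20.0%, beside 17.9% of all assays). Their sum was 3.71 to 5.75 in differentiation medium and 7.63 to 11.9 in growth medium. This sum is almost all miR-155, read at 18.95 to 21.16 cycles over the 8 rows, against 26.36 to 27.84 for miR-150, the next. miR-155 is also counted above among miRNAs of myoblast differentiation, so the sum does not stand for blood cells alone. Epithelial markers had 3 tested and none passed against MammU6, with miR-429 listed with no Ct in any of the 8 rows. Against the row median 1 of the 3 was lower, whereas 1 was higher against each of snoRNA135 and U87. Of the 2 tested neural markers miR-128a was higher and miR-9 did not pass (0.38 ± 0.55), while miR-124 had a Ct in 1 row of differentiation and 3 of growth, and miR-153 in 0 and 1. The part of these cell types in the differences above was not tested.

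In 3 assays all 4 rows of 1 group had a Ct and no row of the other did. miR-302b, a pluripotent cell miRNA, was read at 31.65, 34.48, 32.94 and 31.92 cycles in differentiation medium and in no growth row. It had no Ct on any other day of either course. Its level was at least 163-fold higher if absent wells are set at 40 cycles, and 40.6-fold if at 38. miR-139-3p, from the same hairpin as miR-139-5p, was read at 35.69, 32.30, 33.42 and 35.50 cycles in differentiation medium only (at least 58.3-fold, or 14.6-fold with 38 cycles), and also in all 4 rows of differentiation day 2. miR-291a-3p had no Ct in differentiation medium, against 36.26, 35.28, 35.07 and 36.03 in growth medium, so that it was at least 19.0-fold lower, or 4.75-fold with 38 cycles. These folds use group means and make no allowance for the spread between wells. None of the 12 pluripotent cell assays on the plates, miR-302b and miR-291a-3p among them, was detected often enough to test.

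The levels on the other days stand beside those of day 5 as values without a test, since the comparisons share rows and the courses start on different days. miR-1 was at -8.89 on differentiation day 0 and at -3.62 on day 5, and at -9.50 on proliferation day 2 and -7.43 on day 5. Its level on day 5 was above that of the earliest day in each course. miR-499 had the same order, with -19.99 and -12.92 in differentiation and -20.18 and -15.85 in proliferation.

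miR-504 had -17.50 on day 0 and -14.05 on day 5 of differentiation, beside -19.26 and -18.78 in proliferation. Its value on proliferation day 2 rests on 3 rows, because the other row had no Ct and was left out. The size of its step in proliferation is therefore uncertain. For miR-335-3p the levels were -7.77 and -14.95 in differentiation and -6.65 and -7.59 in proliferation. For miR-15b they were -8.34 and -11.33 in differentiation and -8.57 and -7.85 in proliferation. In these 3 miRNAs the larger step from the earliest day to day 5, between the values given, lay within the differentiation course.

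For other miRNAs the step was larger within the growth course. miR-135a stood at -15.61, -15.87 and -15.85 on days 0, 2 and 5 of differentiation, against -14.87 on day 2 and -11.87 on day 5 of proliferation. miR-29b stood at -13.72, -12.17 and -13.13 on the same days of differentiation and at -12.71 and -11.11 in proliferation. miR-335-5p stood at -8.48, -7.41 and -8.19 in differentiation and at -7.99 and -6.83 in proliferation. miR-29b and miR-335-5p thus had their highest differentiation level of these days on day 2, and miR-135a stayed within 1 cycle.

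**Figure D5:**
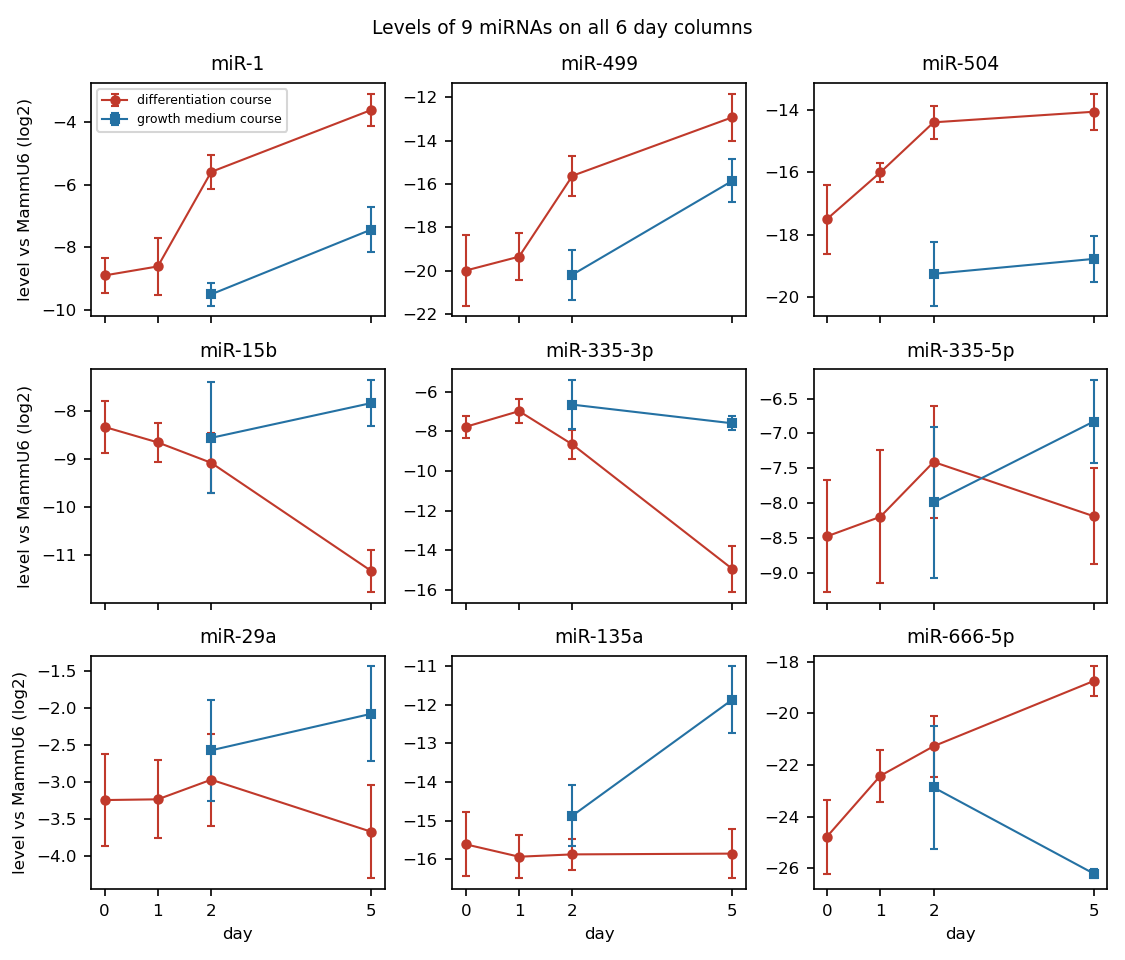
Mean level relative to MammU6 (log2, bars are the SD of the rows with a Ct, at most 4) of 9 miRNAs on days 0, 1, 2 and 5 of differentiation (red circles) and on days 2 and 5 in growth medium (blue squares). For miR-335-3p and miR-15b the red line drops to -14.95 and -11.33 on day 5, whereas for miR-135a the blue line climbs to -11.87 and the red one stays near -15.85. The blue day 5 point of miR-666-5p and the blue day 2 point of miR-504 rest on 3 rows each.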

How the data were processed

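The deposited values are raw Ct, as the authors' files give them: 381 TaqMan assays, 4 wells per assay and day, run for 40 cycles on an Applied Biosystems 7900HT after TRIzol extraction, per the labels. Baseline and threshold settings are not given in the sources used here. The 6 day columns recur in the deposited pairs, and all 8 repeat columns were identical. Rows carry no numbers in the labels, are numbered here by position, and were not paired. miR-206 is not analysed here.

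Wells marked undetermined were not used. Testing required a Ct in at least 3 of 4 wells of both groups and a mean Ct under 35 in at least 1. MammU6 Ct minus miRNA Ct was fitted on the 8 rows with limma 3.58.1 (lmFit, eBayes) in R 4.3.3, two-sided, with Benjamini-Hochberg adjustment. The fit was run on simulated data with noise drawn independently for each assay. In the real data all levels of a row share 1 MammU6 Ct, so that run does not test how this affects the number of calls. Exact permutation tests used scipy 1.17.1 and figures matplotlib 3.10.9, in Python 3.11.15. Precision is limited by the number of rows, and intervals cover the spread between rows only.

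The members and lists were chosen with earlier results of these data known, and lists count mouse assays, with both arms. The miRNAs named are up to 15 of the largest rises and 15 of the largest falls that passed against both references, the tested members of 6 lists (muscle, miR-17-92, miR-15/16, miR-221 and miR-222, Hox, miR-335), up to 4 members with the largest difference of each other list, assays read in 1 group only, and controls. miR-133b's and other sequences were matched by name, for 105 of the 234 mouse assays tested. This matching was made after the calls were known and favours miRNAs that passed, so shared seeds are a description. Alternatives were other references, filters, thresholds, tests and rows left out. Leaving out the row of late MammU6 in each group was chosen after seeing the data.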

Additional observations from a re-analysis of the deposited data

Results flagged for a closer look

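Among the 4 rows of a group, 1 row stood far from the other 3 (Dixon's test at the 95% level) in 10 of 208 groups checked, and chance gives about 1 in 20. Row 1 of differentiation stood apart for miR-128a (level -7.06, the others -8.23 to -8.08), miR-133a (1.89, the others 1.26 to 1.29), miR-195 (-11.26, the others -11.70 to -11.68) and miR-23b (-9.34, the others -10.55 to -10.38). Row 2 of growth stood apart for miR-142-3p (-16.75, the others -18.34 to -18.09), miR-30e (-6.24, the others -7.48 to -7.32), miR-34b-3p (-4.16, the others -4.84 to -4.78) and miR-500 (-9.74, the others -11.31 to -11.06). These 8 lie in the rows where MammU6 came up latest, at 13.69 cycles in differentiation medium and 13.64 in growth medium. Row 4 of differentiation was low for miR-425 (-12.56, the others -12.11 to -12.08) and row 2 for miR-433 (-13.78, the others -13.30 to -13.22). Without the row of late MammU6 in each group, 107 assays changed in place of 80, 46 higher and 61 lower.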

How the results depend on the processing

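The number of miRNAs called depended most on the reference. Against the row median 121 changed and 78 were lower. Against snoRNA135, itself later in differentiation medium, 153 changed, 126 higher and 27 lower. Against U87 129 changed and 88 were higher, against snoRNA202 57 were higher, and with the 4 other controls averaged 136 changed and 90 were higher. With no reference 72 were lower. The median difference of all assays moved to -0.22 against the row median, 0.77 against snoRNA135, 0.37 against U87, 0.22 against Y1, 0.08 against snoRNA202 and 0.36 against the mean of the 4, so these shifts stand beside every change of call with the reference. With each assay's variance estimated alone 45 passed, 21 higher and 24 lower, and an adjusted p under 0.01 left 40, 20 each way. With 1 row left out, 56 to 96 changed, 26 to 43 higher and 28 to 63 lower, fewest lower without row 4 (28) or row 3 (29) of differentiation. The other planned settings kept each count within 1.5 times.

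None of the miRNAs chosen by the naming rule that passed changed sign under any setting run. Sign changes were seen only in miRNAs that had not passed, and of these miR-126-5p then passed (0.69 against snoRNA135). Against snoRNA135 the turned values were let-7b 0.155, let-7c 0.215, let-7i 0.235, miR-150 0.28, miR-200c 0.44, miR-208b 0.30, miR-214 0.0925, miR-222 0.035, miR-27a 0.49, miR-322 0.52, miR-34a 0.215, miR-467a 0.55 and miR-503 0.60. Against U87 they were miR-126-5p 0.295, miR-200c 0.045, miR-27a 0.0975, miR-322 0.12, miR-467a 0.15 and miR-503 0.205. Against Y1 they were miR-126-5p 0.14, miR-467a 0 and miR-503 0.0525, and against snoRNA202 miR-126-5p 0.0025. With the 4 other controls averaged they were miR-126-5p 0.28, miR-200c 0.0319, miR-27a 0.0844, miR-322 0.11, miR-467a 0.14 and miR-503 0.19. With 1 row left out the ranges that crossed 0 were -0.0583 to 0.53 for miR-10a, -0.0308 to 0.62 for miR-30d, -0.00417 to 0.49 for miR-30e, -0.0242 to 0.56 for miR-181c, -0.57 to 0.0167 for miR-322, -0.45 to 0.095 for miR-503 and -0.133 to 0.85 for miR-9. The cause of these changes was not tested. No paired analysis was possible because the rows carry no replicate numbers in the labels. Assays near 40 cycles have the least certain values.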
